A study of Mus musculus with 9 samples.

Results

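Messenger RNA levels of genes that act in mitosis were compared between basal cells of the leading edge (LE), of the proliferative hub and of control skin around a mouse tail wound. A list of 35 mitosis genes was matched to the array by gene symbol, and 34 were measured out of 17097 genes with a symbol of their own. Nuf2 was not analysed here. Where a gene had several probe sets, the one with the highest mean over the 9 arrays stood for it.

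All arrays came from CD1 mice, 4 days after a 3 mm wound had been made in the tail, and the labels give no genotype, sex or age. LE cells came from a 4 mm punch around the wound and were sorted as positive for ITGA5 (α5 integrin), hub cells came from a 6 mm punch and were sorted as ITGA5 negative, and for the control group a piece of skin distant from the wound was taken, for which no ITGA5 gate is named. Each group had 3 arrays, each from 300 sorted cells that were α6 integrin positive and CD34 negative, and the tissue was pooled from 5 mice. Region, wounding and the ITGA5 gate changed together between the groups and cannot be told apart. The labels call the arrays biological replicates and the methods call them technical, so each p-value below measures a spread between arrays that may be technical.

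Mitosis begins when cyclin-bound CDK1 phosphorylates chromatin, the nuclear envelope and the spindle, and it ends when the anaphase promoting complex has ubiquitinated cyclins and securin and cytokinesis has parted the daughter cells. Most genes of this programme are transcribed late in the cell cycle, from G2 into mitosis, so their messenger RNA in a sorted population is commonly read as a sign of cycling cells. In these bulk samples, fewer cycling cells and less messenger RNA per cycling cell cannot be told apart. Basal cells of the interfollicular epidermis divide to feed the suprabasal layers. The comparisons ask how the levels of these genes differ between a zone named for its proliferation, the edge in front of it and skin away from the wound.

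Promoters of late cell cycle genes often carry CCAAT boxes, which bind the factor NF-Y, and a cell cycle genes homology region (CHR), which is bound by MuvB complexes. The letters CCAAT, and TTTGAA or TTCGAA for the CHR, were searched on both strands in RefSeq promoter windows of mouse assembly GRCm38.p6, each with 250 bases before and 50 bases after a transcription start. The search covered 32 windows of 30 measured mitosis genes. Aurkb, Ccna2, Kif20a and Tpx2 had no entry. The CHR letters stood in 28 windows (87.5%), against 19.2% of all 32851 windows, and CCAAT stood in 71.9% against 37.4%. Both were present in 68.8% of the mitosis gene windows and in 7.52% of all windows. The windows of Birc5, Melk and Nusap1 held neither, and that of Cenpe held CCAAT alone. A match describes the letters and is not a bound site. The stretches below are from Ttk and Cdca8, the 2 genes with the largest hub minus control difference among those whose printed stretch holds both kinds of letters. Each runs 5′ to 3′ on the gene's own strand, from 120 bases before the start to 30 bases after it, and capitals mark CCAAT or its opposite-strand form ATTGG and the CHR letters TTTGAA or their opposite-strand form TTCAAA.

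Ttk, chr9:83834569-83834718, plus strand, GRCm38.p6: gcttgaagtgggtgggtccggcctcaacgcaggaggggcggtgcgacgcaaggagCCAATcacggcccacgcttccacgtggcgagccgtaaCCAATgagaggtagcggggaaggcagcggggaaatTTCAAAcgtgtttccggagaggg
Cdca8, chr4:124936888-124937037, minus strand, GRCm38.p6: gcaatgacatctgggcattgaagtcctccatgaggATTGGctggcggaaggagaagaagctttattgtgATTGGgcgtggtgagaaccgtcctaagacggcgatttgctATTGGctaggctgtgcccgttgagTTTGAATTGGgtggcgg

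In Ttk the CCAAT boxes begin 65 and 28 bases before the start, and the CHR letters begin at base 8 of the transcript on the opposite strand. In Cdca8 the CCAAT matches lie on the opposite strand at 85, 51 and 11 bases before the start and at base 19 of the transcript, where the last one shares a base with the CHR letters that begin at base 14.

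Values are log2 signals as the authors deposited them, and a difference of 1 is a 2-fold change. Array medians lay between 6.47 and 6.53, and 23 probe sets made to read nonspecific background had a median of 4.67. These 23 ran from 3.70 to 8.32, and dim mitosis genes such as Cep55, Bub1 and Kif23 lay below the brightest of them on all 9 arrays. Signals of different genes are not compared, because probe sets differ in brightness at equal RNA levels, and a change of total RNA cannot be seen because the arrays were made to share 1 distribution. The basal keratins followed the label, with Krt5 between 13.23 and 13.34 and Krt14 between 13.26 and 13.34 on the 9 arrays. Of 6 basal keratinocyte markers, 2 were higher at the LE than in hub and control, with adjusted p under 0.05 in limma. Itga6, which encodes the α6 integrin used to sort all cells, differed by 0.47 from the hub and 0.69 from control, and Itgb4 by 0.38 and 0.34. Krt5, Krt14, Trp63 and Col17a1 did not pass in any comparison. Itga5, the gene of the gate that differed between groups, read 9.06 to 9.17 on the LE arrays, 6.46 to 7.47 on the hub arrays and 6.23 to 6.497 on the control arrays. LE array 1 stood apart in endothelial markers: the mean over 12 of them was 7.32 there, against 6.40 and 6.51 on the other LE arrays. Most counts of called genes that use LE arrays, and most single calls, are therefore also given without LE array 1. Counts by sign, unadjusted p, overlap of arrays or order of group means are given with all arrays only.

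Against control skin, mitosis genes were called higher in both wound regions, and the count was larger at the LE than in the hub. The difference between the counts was not tested. A gene was called when its adjusted p was under 0.05 in limma, a linear model fitted over all 17097 genes with Benjamini-Hochberg adjustment. Between LE and control, 19 of the 34 genes rose and 1, Nusap1, fell, while 11.9% of all genes were called higher and 10.8% lower. Between hub and control, 7 genes rose (Plk1, Aurka, Ttk, Cdc20, Birc5, Cdca8 and Cep55) and 0 fell, while 4.16% of all genes were called higher and 3.12% lower. In the hub, 14 mitosis genes were higher and 1 was lower when the p below 0.05 was not adjusted, a rule that 11.3% of all genes passed in the higher and 8.2% in the lower direction. Both comparisons use the same control arrays, so their calls are not independent.

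Directly between LE and hub, Aurka, Ube2c and Anln were higher at the LE and 0 mitosis genes were lower, while 5.39% of all genes were called higher and 5.23% lower. Without adjustment of the p, 10 genes passed 0.05 in the higher direction and 0 in the lower, while 10.9% and 11.8% of all genes did. The fitted difference was above 0 for 29 of the 34 genes, with a median of 0.22 on the log2 scale, and the median over all genes was -0.01. The median mitosis gene difference was 0.26 between hub and control and 0.47 between LE and control, beside 0.03 and 0.02 over all genes. Every LE array lay above every hub array for 10 of the 34 genes (14.5% of all genes), every hub array above every control array for 14 (14.4%), and every LE array above every control array for 22 (20.0%). Changes were small: Cep55 between LE and control was the 1 difference of at least 2-fold.

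**Figure D1:**
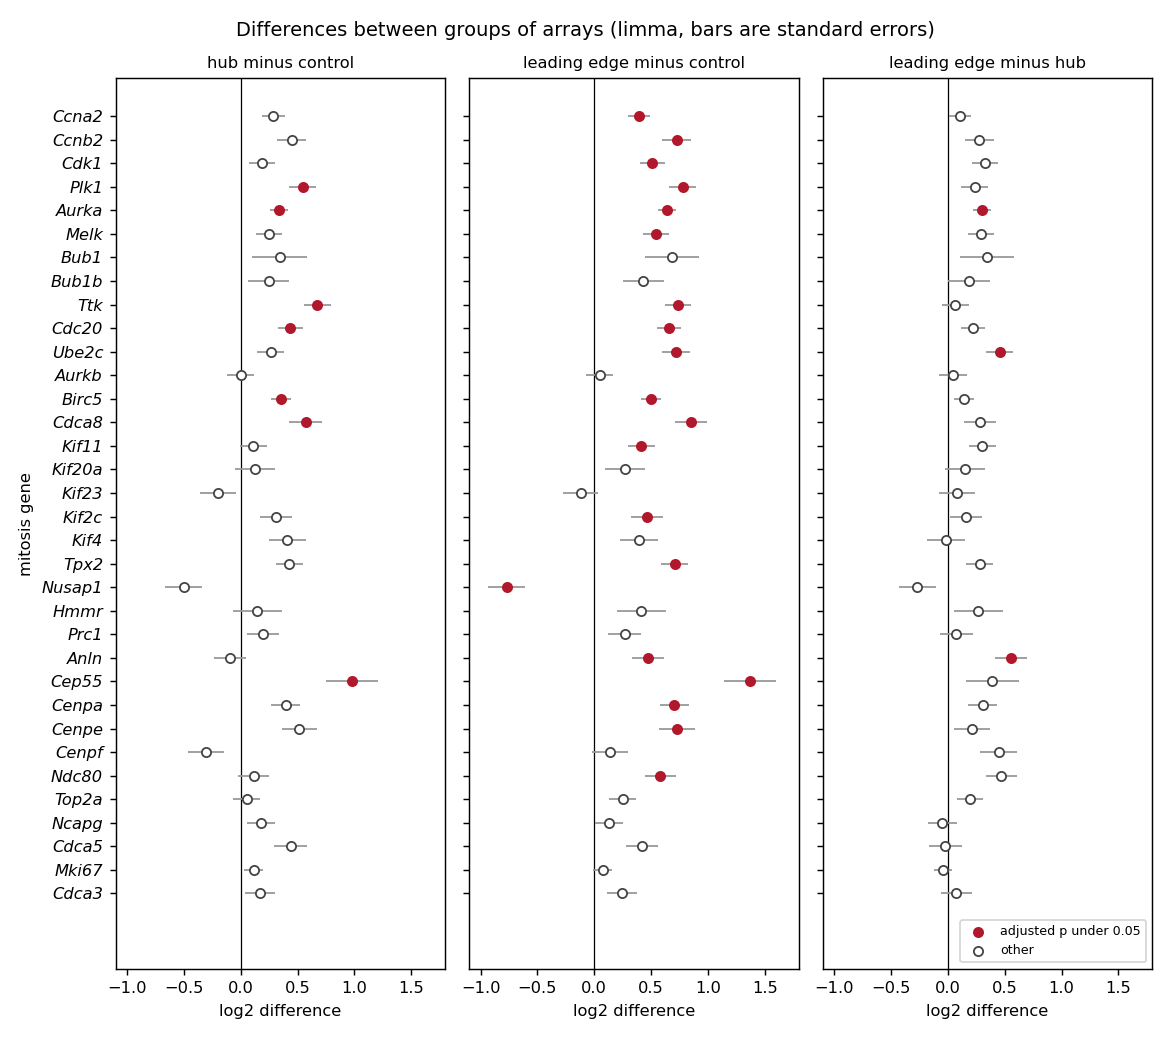
Fitted log2 differences of the 34 measured mitosis genes (rows, grouped by role) for hub minus control, LE minus control and LE minus hub; bars are standard errors and filled points have an adjusted p under 0.05 in limma over 17097 genes, with 3 arrays in each group. Most points lie right of 0 in all 3 panels, 20 are filled in LE minus control and 3 in LE minus hub, and Nusap1 is the 1 filled point left of 0.

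These counts depended on single arrays to different degrees. Apart from the LE comparisons without LE array 1, the share of all genes called in each removal is not given here. A loss of mitosis gene calls in those removals cannot be told from a general loss of calls. The count of 19 rises between LE and control became 15 to 19 when any 1 of the 9 arrays was left out, and 15 without LE array 1, with a median of 0.42, while 10.2% of all genes were then called higher. Those 15 differences ran from 0.42 (Cdk1) to 1.24 (Cep55) without that array, Nusap1 was at -0.93, and Ccna2 (0.35), Kif11 (0.32), Kif2c (0.45) and Anln (0.38) lost the call. Of the 20 calls, 16 held in all 9 removals. The count of 3 between LE and hub became 0 without any 1 of the LE arrays, hub array 1 or hub array 2, 2 without hub array 3, control array 1 or control array 2, and 3 without control array 3 (the genes counted were not the same in each removal), while the median difference stayed between 0.13 and 0.31, at 0.18 without LE array 1. The count of 7 between hub and control became 5 without LE array 1, LE array 2 or hub array 2, 4 without control array 2, 2 without LE array 3, hub array 1, control array 1 or control array 3, and 1 without hub array 3, and Ttk was the 1 call that held in all removals.

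Of the cyclins and their kinase, Ccna2 encodes cyclin A2, Ccnb2 encodes cyclin B2 and Cdk1 encodes the kinase they activate. All 3 rose between LE and control, by 0.39 to 0.73, and 0 of 3 were called in the other comparisons. Ccna2 read 11.36, 11.17 and 11.30 on LE arrays 1 to 3, 11.20, 11.12 and 11.20 on the hub arrays and 11.01, 10.97 and 10.67 on the control arrays. The control arrays were lowest without overlap, and LE and hub overlapped. The Ccna2 difference was 0.39 ± 0.10 (SE) between LE and control (adjusted p = 0.0171), and the call was lost without LE array 1 or LE array 3 (adjusted p up to 0.0594). A second Ccna2 probe set, with a mean of 9.30, gave 0.27 between LE and control and was not called. Ccnb2 differed by 0.73 ± 0.13 between LE and control and by 0.45 ± 0.13 between hub and control (adjusted p = 0.0688 in limma for the latter). Cdk1 was higher by 0.51 ± 0.11 between LE and control, and every LE array lay above every hub array, with a difference of 0.33 (adjusted p = 0.109 in limma).

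Among the mitotic kinases, Plk1 drives entry, centrosome maturation and exit, Aurka builds the spindle poles and Melk encodes a kinase that peaks in mitosis. All 3 rose between LE and control, by 0.54 to 0.78. Plk1 read 10.22, 10.20 and 9.99 on the LE arrays, 9.79, 9.90 and 10.01 on the hub arrays and 9.31, 9.60 and 9.16 on the control arrays. Both wound regions lay wholly above control, and they overlapped with each other. The Plk1 difference was 0.78 ± 0.12 between LE and control (adjusted p = 0.00121) and 0.54 ± 0.12 between hub and control (adjusted p = 0.0252), which corresponds to 1.72-fold and 1.46-fold. The hub call was lost without hub array 2 or 3 or control array 1 or 3, with adjusted p up to 0.0978 in limma.

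Aurka was the 1 gene of the 34 that was called in all 3 comparisons. Its signal was 9.43, 9.28 and 9.35 on the LE arrays, 9.03, 8.97 and 9.15 on the hub arrays and 8.63, 8.72 and 8.78 on the control arrays. The groups did not overlap and formed 3 steps from control to hub to LE. The steps measured 0.34 ± 0.08 from control to hub (adjusted p = 0.0305) and 0.30 ± 0.08 from hub to LE (adjusted p = 0.0362), and the difference between LE and control was 0.64 ± 0.08 (adjusted p = 0.000293), or 1.56-fold. The hub to LE call was lost in 6 of 9 removals (each LE array, hub arrays 1 and 2, control array 2), with differences from 0.26 to 0.35 and adjusted p up to 0.130, and it was 0.26 without LE array 1. The control to hub call was lost without LE array 3, hub array 1 or 3 or control array 1 or 2 (adjusted p up to 0.119). Melk was higher by 0.54 ± 0.11 between LE and control, and its 3 groups did not overlap either, with a difference of 0.29 between LE and hub that was not called (adjusted p = 0.161 in limma).

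The spindle checkpoint kinases Ttk (MPS1), Bub1 and the related Bub1b (BUBR1) hold back anaphase until each kinetochore is attached. Ttk was the gene of the 3 that was called. It read 8.86, 8.87 and 8.70 on the LE arrays, 8.83, 8.52 and 8.88 on the hub arrays and 8.19, 7.89 and 8.13 on the control arrays. Both wound regions lay above control and covered the same range. Ttk rose by 0.67 ± 0.12 in the hub (1.59-fold, adjusted p = 0.00862) and by 0.74 ± 0.12 at the LE (1.67-fold, adjusted p = 0.00145), and the difference between the regions was 0.07 ± 0.12. A second Ttk probe set, with a mean of 6.22, did not show this, with -0.09 and -0.05 for the same comparisons with control. Bub1b read 8.81, 8.65 and 8.88 at the LE, 8.52, 8.55 and 8.71 in the hub and 7.92, 8.35 and 8.78 in control. The control arrays covered the hub range and overlapped with the LE, and the LE minus control difference of 0.43 ± 0.18 was not called (adjusted p = 0.127 in limma), although a second Bub1b probe set with a mean of 8.10 was called at 0.47. Bub1 differed by 0.69 ± 0.24 between LE and control (adjusted p = 0.0706 in limma), with control arrays from 6.25 to 6.88.

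Anaphase is started by Cdc20, the activator of the anaphase promoting complex, and Ube2c, the ubiquitin-conjugating enzyme that works with it. Both rose between LE and control. Ube2c read 11.36, 11.12 and 11.06 on the LE arrays, 10.69, 10.52 and 10.96 on the hub arrays and 10.43, 10.53 and 10.43 on the control arrays. Every LE array was above every other array, and hub array 2 was below the highest control array. Ube2c rose by 0.72 ± 0.12 between LE and control (adjusted p = 0.00199) and by 0.46 ± 0.12 between LE and hub (1.37-fold, adjusted p = 0.0410), with 0.26 ± 0.12 between hub and control (adjusted p = 0.271). The call against the hub was lost in every removal but that of hub array 3, with differences from 0.35 to 0.57 and adjusted p up to 0.135, and without LE array 1 the difference was 0.36. Cdc20 rose by 0.66 ± 0.11 at the LE and by 0.44 ± 0.11 in the hub (adjusted p = 0.0402), the latter call being lost in every removal but that of hub array 2 (adjusted p up to 0.117 in limma).

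The chromosomal passenger complex corrects kinetochore attachments and later controls cytokinesis, with Aurkb as its kinase, Birc5 (survivin) and Cdca8 (borealin) as targeting subunits. Birc5 and Cdca8 rose in both wound regions and Aurkb was not called in any comparison. Birc5 read 10.47, 10.29 and 10.41 at the LE, 10.24, 10.13 and 10.37 in the hub and 9.96, 9.91 and 9.80 in control. Control was lowest without overlap. Birc5 was higher by 0.50 ± 0.09 at the LE (adjusted p = 0.00242) and by 0.36 ± 0.09 in the hub (adjusted p = 0.0381), and the hub call was lost without LE array 3, hub array 1 or 3 or any 1 control array (adjusted p up to 0.141).

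Cdca8 followed with larger differences. Its signal was 10.64, 10.43 and 10.46 on the LE arrays, 10.25, 10.04 and 10.39 on the hub arrays and 9.45, 9.98 and 9.55 on the control arrays. The 3 groups did not overlap, although control array 2 came close to the hub. Cdca8 rose by 0.85 ± 0.14 at the LE (1.81-fold, adjusted p = 0.00203) and by 0.57 ± 0.14 in the hub (1.48-fold, adjusted p = 0.0432), and a second probe set gave 0.99 and 0.69. The hub call was lost without any 1 LE array, hub array 1 or 3 or control array 1 or 3 (adjusted p up to 0.152). Aurkb, the kinase of the same complex, differed by 0.05 ± 0.12 between LE and control and by -0.0003 between hub and control, on a probe set that may also bind related transcripts, and its second probe set gave 0.31 and 0.18, also not called.

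The spindle motors are kinesins: Kif11 separates the poles, Kif20a and Kif23 work in the central spindle, Kif2c depolymerises microtubules at centromeres and Kif4 acts on chromosome arms and the midzone. Kif11 and Kif2c rose between LE and control, by 0.41 ± 0.12 (adjusted p = 0.0315) and 0.46 ± 0.14 (adjusted p = 0.0414), and 0 of 5 were called in the other comparisons. Neither call was firm. Kif11 lost it without LE array 1 or 2 or control array 1 or 3 (adjusted p up to 0.102), and its other probe set, nearly as bright, gave -0.21. Kif2c lost it without any 1 LE array, any 1 hub array or control array 2 (adjusted p up to 0.130). Kif20a read 9.66, 9.27 and 9.49 at the LE, 9.12, 9.14 and 9.72 in the hub and 9.37, 9.26 and 8.97 in control. The 3 groups overlapped, and hub array 3 was the highest of the 9. The differences of Kif20a, Kif23 and Kif4 between LE and control were 0.27, -0.12 and 0.39, with SEs of 0.16 to 0.18.

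Of the spindle assembly factors, Tpx2 activates Aurora A and nucleates microtubules, Hmmr binds spindle microtubules and Nusap1 bundles them around chromosomes. Tpx2 read 9.62, 9.39 and 9.35 on the LE arrays, 9.15, 9.004 and 9.38 on the hub arrays and 8.90, 8.73 and 8.62 on the control arrays. Control was lowest without overlap, and hub array 3 reached into the LE range. Tpx2 rose by 0.71 ± 0.12 at the LE (1.63-fold, adjusted p = 0.00205), and the hub difference of 0.43 ± 0.12 was not called (adjusted p = 0.0630), while its second probe set was called there at 0.68.

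Nusap1 went the other way. Its values, given because it was the 1 fall and thus chosen after they were seen, were 7.96, 7.41 and 7.54 on the LE arrays, 7.92, 7.89 and 7.90 on the hub arrays and 8.72, 8.14 and 8.36 on the control arrays. Control was highest without overlap. Nusap1 fell by 0.77 on the log2 scale between LE and control (SE 0.16, adjusted p = 0.00761), a call that held in all 9 removals, and differed by -0.50 between hub and control (adjusted p = 0.112). Its second probe set, with a mean of 4.87, was near the median of the background probe sets. Hmmr differed by 0.41 ± 0.22 between LE and control and was not called, and the 5 probe sets of Hmmr gave 0.08 to 0.41.

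Among the central spindle and cytokinesis genes were the single genes with the largest differences of the list, Cep55 against control and Anln between LE and hub. As a group these genes did not stand out against control, with a median between LE and control of 0.47, and 0.47 for all 34. Prc1 bundles antiparallel microtubules, Anln (anillin) scaffolds the contractile ring and Cep55 recruits the machinery that severs the midbody. Cep55 read 8.15, 7.66 and 7.84 on the LE arrays, 7.32, 7.28 and 7.88 on the hub arrays and 6.95, 6.51 and 6.09 on the control arrays. Each wound array was above each control array. Cep55 rose by 1.37 ± 0.23 at the LE (2.59-fold, adjusted p = 0.00209) and by 0.98 ± 0.23 in the hub (1.97-fold, adjusted p = 0.0338), and it differed by 0.39 ± 0.23 between the regions. The LE call held in all removals with differences from 1.16 to 1.59, and the hub call was lost without LE array 3, any 1 hub array or control array 2 or 3 (adjusted p up to 0.116).

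Anln was the mitosis gene with the largest difference between LE and hub. It read 9.36, 9.09 and 9.07 on the LE arrays, 8.66, 8.60 and 8.58 on the hub arrays and 8.51, 9.05 and 8.55 on the control arrays. Every LE array was above every other array, and control array 2 lay just below the LE. The difference was 0.56 ± 0.14 between LE and hub (1.47-fold, adjusted p = 0.0335), -0.09 ± 0.14 between hub and control, and 0.47 ± 0.14 between LE and control (adjusted p = 0.0394). The call against the hub was lost without any 1 LE or hub array (0.47 without LE array 1, adjusted p up to 0.111), and the call against control in every removal but that of control array 2 (adjusted p up to 0.128). A second Anln probe set with a mean of 6.26 gave 0.23 between LE and hub and -0.42 between LE and control, so the direction against control rests on the brighter one. Prc1 read 10.22, 10.07 and 10.05 at the LE, 10.14, 9.73 and 10.24 in the hub and 9.87, 10.04 and 9.63 in control. The LE lay wholly above control, the hub overlapped with both, and the differences of 0.07 to 0.27 were not called.

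**Figure D2:**
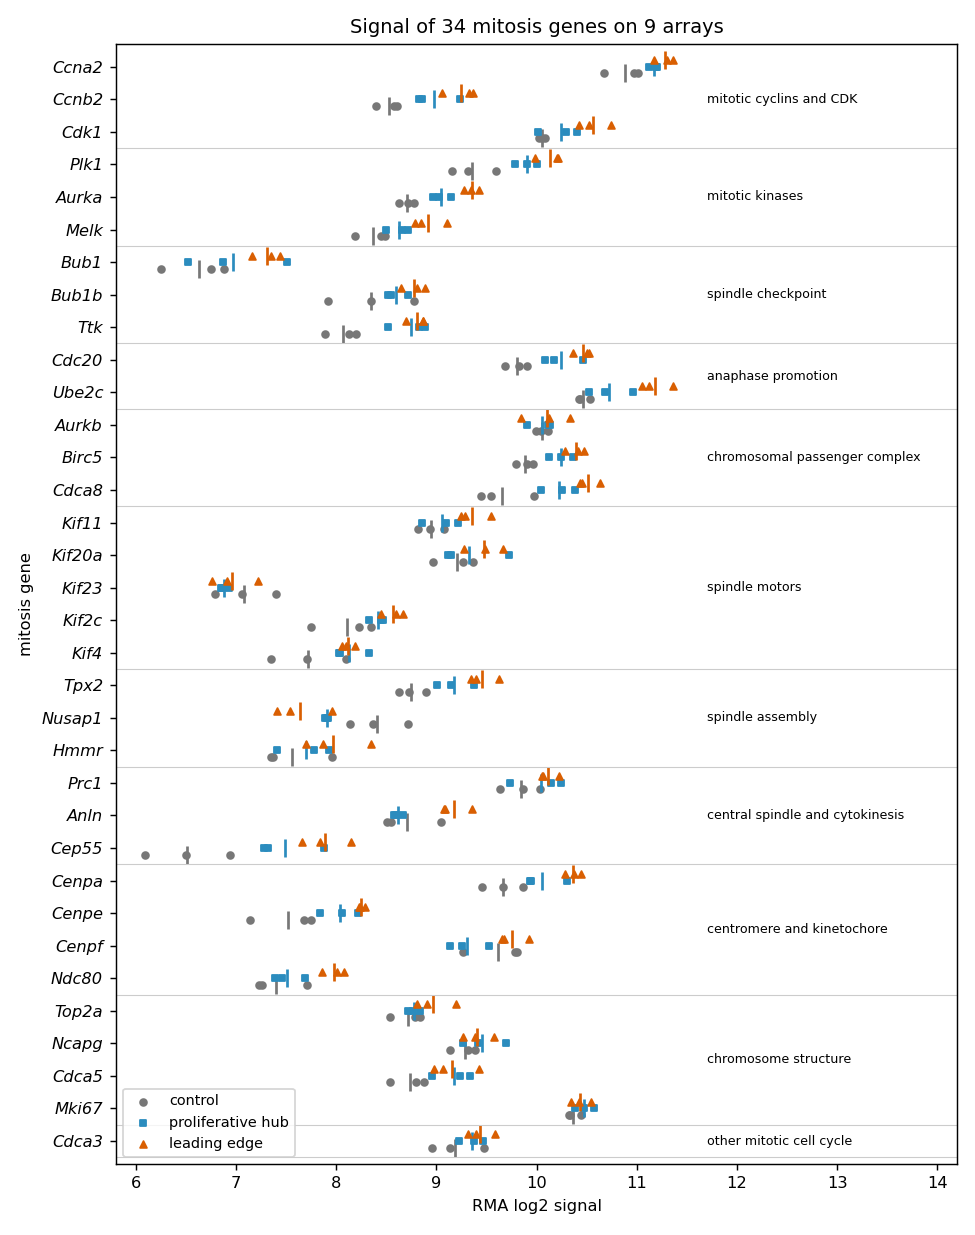
RMA log2 signal (horizontal axis) of the 34 measured mitosis genes (vertical axis) on each of the 9 arrays, with points for single arrays, vertical ticks for the means of 3 arrays and role groups named at the right. Control points of Plk1, Ttk, Cdca8 and Cep55 lie left of both wound regions, Anln has its LE points apart from the hub, and Mki67 and Aurkb have all groups in 1 range.

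At the centromere, Cenpa is the histone H3 variant that marks it, Ndc80 binds microtubules, Cenpe is a kinesin that aligns chromosomes and Cenpf is a large kinetochore protein. Cenpa, Cenpe and Ndc80 rose between LE and control, by 0.70, 0.73 and 0.58, and 0 of 4 were called in the other comparisons. Cenpa read 10.44, 10.28 and 10.37 at the LE, 9.93, 9.94 and 10.30 in the hub and 9.67, 9.46 and 9.86 in control. Control was lowest without overlap, and hub array 3 reached the LE range. Ndc80 read 8.08, 7.86 and 8.004 at the LE, 7.39, 7.46 and 7.69 in the hub and 7.23, 7.71 and 7.26 in control. The LE stood above both other groups, and these overlapped. The Ndc80 difference between LE and hub was 0.47 ± 0.14 (1.39-fold), with an adjusted p of 0.0598 in limma, so it was not called. Cenpf had 0.45 between LE and hub with no overlap (adjusted p = 0.121 in limma) and -0.31 between hub and control (adjusted p = 0.340). A second Cenpf probe set, with a mean of 8.79, gave 0.04 and -0.35 for these comparisons, also not called. The difference between LE and hub thus rests on the chosen probe set.

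Genes of chromosome structure showed no call in any comparison. They were Top2a, the topoisomerase that untangles chromatids, Ncapg, a condensin subunit, Cdca5 (sororin), which stabilises cohesion, and Mki67, which coats mitotic chromosomes and encodes the Ki-67 antigen used to count cycling cells. Their LE minus hub differences lay between -0.05 and 0.20 and their LE minus control differences between 0.07 and 0.42. Mki67 read 10.55, 10.34 and 10.42 at the LE, 10.48, 10.38 and 10.57 in the hub and 10.33, 10.32 and 10.44 in control. The 3 groups overlapped, and its differences were -0.04, 0.11 and 0.07 (LE minus hub, hub minus control, LE minus control), each with an SE of 0.08. A miss of the threshold does not show that these levels were equal. Cdca5 was the nearest to a call, at 0.42 ± 0.14 between LE and control (adjusted p = 0.0662) and 0.44 ± 0.14 between hub and control (adjusted p = 0.112 in limma). Its second probe set, nearly as bright with a mean of 8.98, gave 0.20 and 0.17, also not called. A second, dimmer Ncapg probe set with a mean of 6.97 was called between LE and control at 0.66. Cdca3, a trigger of mitotic entry that stands outside these groups, read 9.58, 9.31 and 9.40 at the LE, 9.38, 9.22 and 9.47 in the hub and 8.96, 9.13 and 9.48 in control, where control array 3 lay inside the range of the LE, and it differed by 0.24 ± 0.13 between LE and control.

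Group means followed the order control, hub, LE from lowest to highest for 25 of the 34 genes (73.5%), against 28.5% of all genes. The order control, LE, hub held for 4, hub, control, LE for 3, and the remaining 2 orders for 1 gene each. Many of these steps were within the spread between arrays. On single arrays, the median deviation of the 34 genes from their own means over 9 arrays was 0.37, 0.13 and 0.20 on LE arrays 1 to 3, 0.02, -0.10 and 0.16 on hub arrays 1 to 3 and -0.28, -0.19 and -0.32 on control arrays 1 to 3. Hub array 3 thus sat among the LE arrays on this measure, above LE array 2.

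The genes moved together within a group. LE array 1 was the highest LE array for 30 of 34 genes (88.2%, against 31.6% of all genes). Hub array 3 was the highest hub array for 29 genes (85.3%, against 33.6%) and hub array 2 the lowest for 27 (79.4%, against 37.5%). Control arrays shared the highest place more evenly, with 14, 11 and 9 genes. The 34 genes therefore cannot be counted as independent readings of a group.

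**Figure D3:**
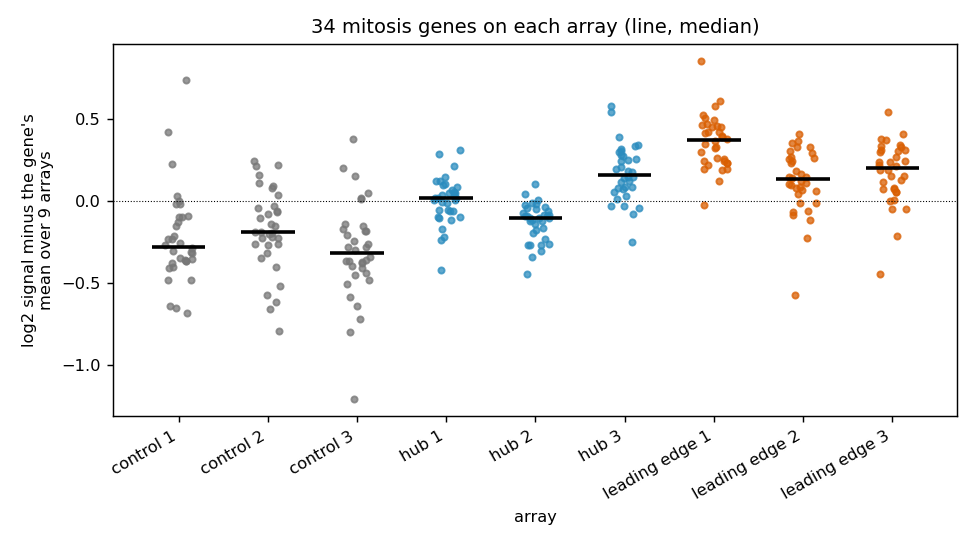
Log2 signal of each of the 34 mitosis genes minus that gene's mean over 9 arrays (vertical axis), by array (horizontal axis), with the median as a line. Medians are -0.19 or lower on the 3 control arrays, 0.13 or higher on the 3 LE arrays, and between -0.10 and 0.16 on the hub arrays.

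Markers of other cells that a sort of basal keratinocytes could hold were read on the same arrays. The mean of 12 endothelial markers was 7.32, 6.40 and 6.51 on the LE arrays, 6.38, 6.78 and 6.74 on the hub arrays and 6.13 to 6.38 on the control arrays, with 0 of 12 called in each comparison. Cdh5, the endothelial cadherin, read 9.73 on LE array 1 and 8.39 and 8.42 on hub arrays 2 and 3. The mean of 18 myeloid markers was 6.61, 5.92 and 6.52 at the LE and 5.81 to 5.89 on the other arrays, and 4 of 18 rose between LE and control and 2 between LE and hub. LE array 1 was thus high in mitosis genes and in both marker lists. Hub array 3 was high in mitosis genes among the hub arrays, and hub array 2 low, at nearly equal endothelial means of 6.74 and 6.78. Langerhans cell markers (6 genes) averaged 7.54 to 8.06 at the LE and 6.98 to 7.17 on the other arrays. Of these 6, 3 rose between LE and hub and 2 between LE and control, and 1 fell between hub and control. Cd207, which defines these cells, was not called and stayed between 5.02 and 5.44 on all 9 arrays. The mean of 6 melanocyte markers was 6.98 on LE array 3 and 5.94 to 6.28 on the others. T cell, fibroblast and hair follicle bulge markers averaged 5.90 to 6.08, 6.08 to 6.42 and 6.92 to 7.17 over all arrays. Of these, 0 rose in any comparison. Among 9 fibroblast markers, Thy1 was lower at the LE than in hub (-1.23) and control (-1.28). Dcn was lower than control in the hub (-1.09) and at the LE (-1.65). Among 6 bulge markers, which include the sort gene Cd34, Nfatc1 was lower than control in the hub (-0.39) and at the LE (-0.48). These differences were called, and no others in these lists were. The mean of 10 suprabasal keratinocyte markers was lower at the LE, at 8.88 to 8.96, than in the hub (9.53 to 9.69) and control (9.49 to 9.93). At the LE, 5 of 10 fell against the hub and 5 against control, where 1 rose, and 0 were called between hub and control. The falls between LE and hub were in Krt1 (-1.73), Krt10 (-1.47), Krtdap (-0.56), Dsg1a (-1.79) and Casp14 (-1.55). The part of other cell types in the mitosis gene differences was not tested.

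Other probe sets of the same genes were a second reading of them. There were 25, of 19 genes, and their difference had the sign of the chosen probe set for 16 between LE and hub, 15 between hub and control and 16 between LE and control. Of the 13 with a mean of 7 or more, 9, 10 and 11 had the same sign. Called higher were 0, 1 and 6 of the 25, 0 were called lower, and 0 genes were called in opposite directions. These calls come from a fit over probe sets. The share called over all probe sets is not given here, so the counts cannot be set against it.

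A wider list held 113 measured mitosis genes outside the 34, among them regulators, kinetochore, cohesion and spindle genes. Between LE and control 30 rose (26.5%, against 11.9% of all genes) and 7 fell (6.19%, against 10.8%), with a median of 0.23. Between hub and control 8 rose (7.08%, against 4.16%) and 2 fell (1.77%, against 3.12%), with a median of 0.14. Between LE and hub 6 rose (5.31%, against 5.39%), a share near that of all genes, and 2 fell (1.77%, against 5.23%), with a median of 0.09. Whether the wider list differed from the 34 was not tested. The 30 rises became 16 without LE array 1 (median 0.185), 19 without LE array 3 and 22 to 30 in the other removals. The 8 rises in the hub became 4 without any 1 hub array or control array 1. They became 5 without LE array 3 and 6 to 8 otherwise. The 6 rises between LE and hub became 4 to 6. Without LE array 1 there were 4 (3.54%, against 4.21% of all genes), with a median of 0.04.

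E2f7, which encodes an atypical E2F repressor of cell cycle genes, had the largest difference in each comparison. It read 8.39, 8.34 and 8.21 on the LE arrays, 7.10, 7.35 and 7.44 on the hub arrays and 5.66, 5.35 and 5.78 on the control arrays. The 3 groups stood far apart. E2f7 rose by 1.01 ± 0.13 between LE and hub (adjusted p = 0.000943), by 1.70 ± 0.13 between hub and control (adjusted p = 0.000116) and by 2.72 ± 0.13 between LE and control (adjusted p = 8.8e-07). All 3 calls held in the 9 removals, and without LE array 1 the differences at the LE were 0.98 and 2.68.

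Its relative E2f8 rose by 0.96 in the hub and 1.38 at the LE against control, and both calls held in every removal. Trip13, an ATPase that disassembles checkpoint complexes, differed by 0.94 in the hub, which was not called (adjusted p = 0.108 in limma), and rose by 1.10 at the LE, a call lost without LE array 1 or 3 (adjusted p up to 0.0939). Its control values were 7.68, 8.91 and 8.95, so array 1 set much of that spread. Mybl2, a transcription factor that binds MuvB and acts on late cell cycle genes, differed by 0.72 in the hub and was not called (adjusted p = 0.162 in limma). At the LE, Mybl2 rose by 0.93 against control (adjusted p = 0.0329 in limma). That call was lost without any 1 LE array, control array 1 or control array 2 (adjusted p up to 0.103 in limma). Cdc25b, the phosphatase that activates CDK1, rose by 0.66 against the hub and 0.94 against control at the LE. The checkpoint gene Mad1l1 (0.57), the cyclin F gene Ccnf (0.55), the kinetochore gene Zwint (0.38) and Anapc4 of the anaphase promoting complex (0.34) were the other rises between LE and hub. In that comparison the calls of Cdc25b, Mad1l1 and Ccnf held in all 9 removals, that of Zwint was lost without LE array 1 or 2 or any 1 hub array (adjusted p up to 0.124), and that of Anapc4 was lost in each of the 9 (adjusted p up to 0.113). The falls were in E2f2, an activating E2F, by 0.90, and in Anapc13, a small subunit of that complex, by 0.41, and the latter was lost without LE array 2 or hub array 3 (adjusted p up to 0.0616).

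S phase genes, which encode replication proteins and are transcribed earlier in the cycle, served as a second reading of cycling. Of 38 measured, 14 rose between hub and control (36.8%, against 4.16% of all genes), with a median of 0.33, and 13 between LE and control (34.2%, against 11.9%), with a median of 0.23, and 0 fell in either. The medians over all genes were 0.03 and 0.02. The count of 14 became 4 without hub array 3, 5 without hub array 1, 6 without control array 1, 7 without control array 3 and 10 to 13 otherwise. The count of 13 became 6 without LE array 1 (15.8%, against 10.2% of all genes, median 0.18). It became 7 without control array 1 and 9 to 13 otherwise. Between LE and hub the median was -0.09, beside 0.22 for the 34 mitosis genes, with 1 rise (Rrm2, a subunit of ribonucleotide reductase, 0.35) and 1 fall (the licensing factor Cdt1, by 0.40). Both were named after their values were seen, and Rrm2 lost its call without any 1 LE or hub array and Cdt1 without LE array 2 or hub array 3 (adjusted p up to 0.131 and 0.0547 in limma). Without LE array 1 the median was -0.12. The group means followed the order control, LE, hub for 20 of 38 S phase genes (52.6%, against 15.1% of all genes and 4 of the 34 mitosis genes). Whether the mitosis and S phase lists differed in their LE minus hub shift was not tested. The CHR letters stood in 47.3% of the windows of the wider mitosis list and in 19.4% of those of the S phase genes. Among the 34, they stood in 83.3% of windows of genes called higher between LE and control and in 100.0% of windows of genes not called there.

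**Figure D4:**
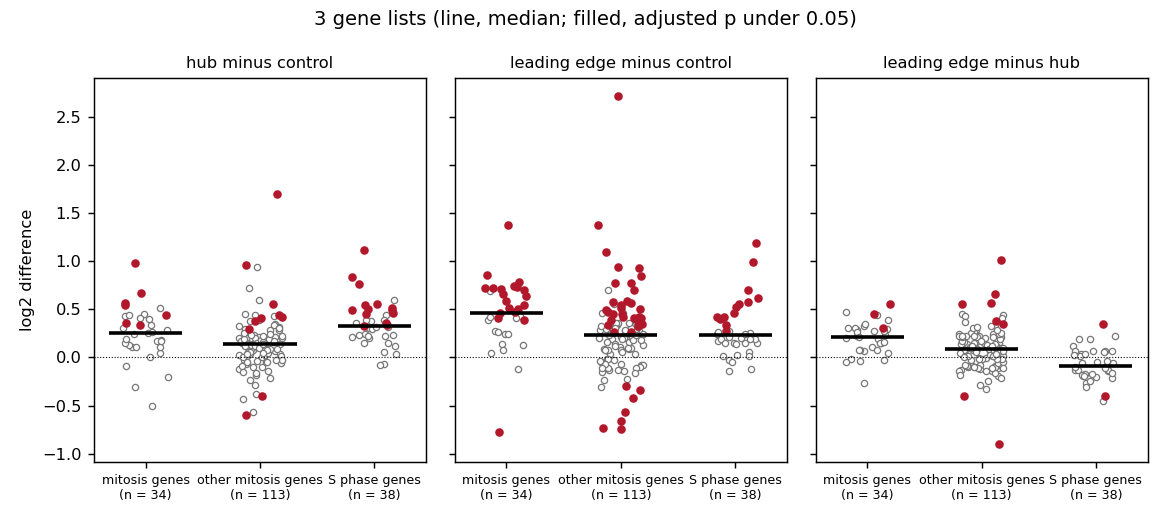
Fitted log2 differences (vertical axis) of the 34 mitosis genes, 113 other mitosis genes and 38 S phase genes in the 3 comparisons, with the list median as a line and genes with an adjusted p under 0.05 filled. The mitosis gene medians are 0.26, 0.47 and 0.22 from left to right and the S phase medians 0.33, 0.23 and -0.09, and the point far above the others is E2f7.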

How the data were processed

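Each of the 9 samples was 300 sorted cells, whose RNA was purified, amplified as cDNA and hybridised to 1 Affymetrix PM strip array of the mouse genome. The authors normalized the arrays with RMA (version not given in the sources used here), and the deposited values are log2 signals per probe set. The platform annotation gave a single symbol to 28898 of the 45141 probe sets (104 are controls), several to 551 and none to 15588. Those with a single symbol gave 17097 genes. Arrays have no read depth, and their number limits the precision. Amplification of little RNA and RMA both compress differences of dim genes. Arrays of 1 group correlated at 0.988 to 0.995 over genes, and arrays of different groups at 0.964 to 0.986.

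Groups came from the deposited labels. A linear model of the 3 group means was fitted to all 9 arrays together with lmFit and eBayes (limma 3.58.1, R 4.3.3). Tests were two-sided, with Benjamini-Hochberg adjustment over all 17097 genes and a threshold of 0.05. The fits were tested on simulated data first. A 2-fold rule, which stands in the methods in place of a test, was run as an alternative. Per-array values are given for the 3 genes with the largest difference in each comparison, those called between LE and hub, and the gene with the highest mean in each role group. Of the wider mitosis list, those called between LE and hub and the 4 largest differences against control are named. The members and lists were chosen with earlier results of these data known. Other alternatives were median centring, repeated quantile normalization, array weights, a trend of variance with mean, the replicate number as a block, no dim genes, a mean over a gene's probe sets, only the 6 arrays compared and leaving out each array. A fit over all probe sets, and the wider mitosis and S phase lists without each array, were added after the data were seen.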

Additional observations from a re-analysis of the deposited data

How the results depend on the processing

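The count of mitosis genes called higher between LE and control was 15 to 19 in every fit that used the adjusted p alone, leaving out single arrays included, and 1 (Cep55) with a 2-fold minimum or under the rule of over 2-fold in each same-numbered pair, while the 1 fall became 0 under both. Between LE and hub the 3 rises became 0 with the 2-fold minimum, the pair rule and the replicate block, and 0 to 3 when single arrays were left out. Between hub and control the 7 rises became 0 with the 2-fold minimum and the pair rule, 3 with the replicate block (which also called 1 fall, Nusap1), 3 with median centring, 4 with repeated quantile normalization, 1 with only the 6 arrays compared and 1 to 5 when single arrays were left out. The cause was not tested. Apart from the LE comparisons without LE array 1, the share of all genes called in these alternative fits is not given here. The counts thus do not separate a loss of mitosis gene calls from a general loss of calls. The labels do not state that replicate numbers pair the arrays, so the block is given here once. Deviations of same-numbered arrays correlated between -0.178 and 0.082, which cannot exclude a shared batch. The median difference over the 34 genes kept its sign in every fit.

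Single calls between LE and hub moved as well. Anln lost its call with the mean of all probe sets (0.39, adjusted p = 0.151), Aurka with the variance trend (adjusted p = 0.0625), and Ube2c with repeated quantile normalization (adjusted p = 0.0569) and with only the 6 arrays compared (adjusted p = 0.0636). Ndc80 gained one with array weights (adjusted p = 0.0492), with the 6 arrays (adjusted p = 0.0216) and without control array 2 (adjusted p = 0.0167).

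Small differences changed sign, none of them called. Between LE and hub these were Aurkb with array weights (-0.0575), Kif4 with repeated quantile normalization (0.0021), and Ncapg (0.12) and Cdca5 (0.0009) with the mean of all probe sets. Between hub and control they were Aurkb with array weights (0.0125) and with the mean of all probe sets (0.0904), and Top2a with the latter (-0.0179). Between LE and control they were Aurkb with array weights (-0.045) and Cenpf with the mean of all probe sets (-0.0351). When single arrays were left out, the differences between LE and hub ranged from -0.046 to 0.136 for Ttk, -0.069 to 0.175 for Aurkb, -0.0472 to 0.180 for Kif23, -0.067 to 0.0787 for Kif4, -0.0812 to 0.176 for Prc1, -0.143 to 0.0693 for Ncapg, -0.154 to 0.0682 for Cdca5, -0.095 to 0.0082 for Mki67 and -0.0013 to 0.135 for Cdca3. Those between hub and control ranged from -0.0436 to 0.0731 for Aurkb, -0.0724 to 0.231 for Kif20a, -0.187 to 0.0824 for Anln and -0.0437 to 0.111 for Top2a, and those between LE and control from -0.0692 to 0.175 for Aurkb, -0.267 to 0.0344 for Kif23 and -0.04 to 0.230 for Cenpf.

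With 3 arrays a group from amplified RNA of few cells, differences near the median SE of 0.13 could not be told from the spread between arrays. The mean of all probe sets brought Anln between LE and control to 0.02, Kif11 to 0.10 and Ttk between hub and control to 0.29, and 0 of these 3 was called then.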
